A study of Mus musculus with 6 samples.

Results

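The immediate early and AP-1 genes Fos, Fosb, Jun, Junb, Jund, Egr1, Ier2, Ier3, Klf6 and Myc were followed in mouse liver. They were read from every probe set whose platform annotation gave exactly 1 symbol equal to one of these names, which held 16 of 45101 probe sets and 10 of 18193 genes. RNA came from the livers of 3 knockout mice and 3 wild-type (WT) mice, 1 Affymetrix array per animal. The knockout mice lack S1P lyase, the enzyme encoded by Sgpl1 that irreversibly breaks down the signalling lipid sphingosine 1-phosphate (S1P). Both groups were untreated and had the mixed C57BL6 X 129sv background. The labels give no allele, sex, age, litter or batch, and do not say which cells lack the enzyme. Of the sex-linked genes read, Xist averaged 11.26 in knockout livers and 10.80 in WT livers on the log2 scale, and Eif2s3y, Kdm5d and Uty lay below the filter on dim probe sets. The Xist difference of 0.46 was called in the comparison described below. That call was lost in 4 of the 6 fits that left out 1 animal and with centring on poly-A controls (-0.29).

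Immediate early genes are switched on within minutes of a stimulus without new protein synthesis, and their messages are short-lived. Fos and Jun proteins pair to form AP-1, a transcription factor that binds the element TGACTCA. MAP kinases, serum response factor and CREB carry the signal to these genes, and in liver several of them are known to be induced by partial hepatectomy and by cytokines.

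RefSeq promoter windows (mouse assembly GRCm38.p6) were found for 7 of the 10 genes, all but Egr1, Ier2 and Myc. Each window runs from 250 bases before to 50 bases after the annotated start. The 4 windows of genes that rose and held one of the motifs searched are shown, followed by that of Fosb, which held a motif and did not pass the filter. Each is written 5′ to 3′ on the gene's own strand, and capitals mark the motifs TGACATCA, TGACG and TATAAA.
Fos, chr12:85473640-85473939, plus strand: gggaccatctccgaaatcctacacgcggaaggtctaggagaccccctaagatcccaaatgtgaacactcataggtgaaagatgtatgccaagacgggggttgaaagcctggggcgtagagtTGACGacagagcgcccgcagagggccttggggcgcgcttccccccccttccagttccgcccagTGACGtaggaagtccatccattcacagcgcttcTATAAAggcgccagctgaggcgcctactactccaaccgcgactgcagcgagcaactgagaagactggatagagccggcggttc
Jun, chr4:95052173-95052472, minus strand: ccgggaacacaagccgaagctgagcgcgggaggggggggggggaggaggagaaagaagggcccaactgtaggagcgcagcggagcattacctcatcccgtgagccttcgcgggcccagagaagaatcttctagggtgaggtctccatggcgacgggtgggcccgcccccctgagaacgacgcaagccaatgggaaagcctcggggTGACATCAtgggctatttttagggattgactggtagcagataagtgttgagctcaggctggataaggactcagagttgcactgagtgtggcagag
Junb, chr8:84978699-84978998, minus strand: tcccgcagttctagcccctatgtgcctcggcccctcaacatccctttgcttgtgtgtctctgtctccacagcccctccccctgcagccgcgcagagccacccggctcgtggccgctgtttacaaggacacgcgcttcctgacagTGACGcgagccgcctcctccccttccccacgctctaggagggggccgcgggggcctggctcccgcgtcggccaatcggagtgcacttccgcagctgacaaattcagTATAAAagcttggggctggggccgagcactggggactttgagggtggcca
Klf6, chr13:5861239-5861538, plus strand: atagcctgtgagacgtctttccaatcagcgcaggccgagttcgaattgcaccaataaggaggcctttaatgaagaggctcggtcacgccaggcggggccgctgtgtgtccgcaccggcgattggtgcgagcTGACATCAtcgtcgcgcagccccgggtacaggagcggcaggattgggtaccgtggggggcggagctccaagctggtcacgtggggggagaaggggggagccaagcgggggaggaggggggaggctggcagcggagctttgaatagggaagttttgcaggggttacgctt
Fosb, chr7:19309996-19310295, minus strand: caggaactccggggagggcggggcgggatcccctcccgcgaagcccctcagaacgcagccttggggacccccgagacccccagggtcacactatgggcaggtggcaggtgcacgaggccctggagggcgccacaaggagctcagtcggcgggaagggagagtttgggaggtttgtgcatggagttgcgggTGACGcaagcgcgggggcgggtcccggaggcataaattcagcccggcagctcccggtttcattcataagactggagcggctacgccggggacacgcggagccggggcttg

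Jun and Klf6 shared TGACATCA, the element through which Jun dimers are known to act on the human JUN promoter. It began 45 bases before the start of Jun and 119 bases before that of Klf6. TGACG, the core of a cyclic AMP response element, began 129 and 66 bases before the start of Fos, 106 before that of Junb and 60 before that of Fosb. TATAAA stood 33 bases before the start of Fos and at the annotated start of Junb. Both strands were searched. TGACATCA was in 2 of the 7 windows and in 3.62% of 32851 windows of the same length over all genes, TGACG in 3 of 7 and 20.8%, and TATAAA in 2 of 7 and 13.6%. The AP-1 element TGACTCA was in 0 of 7 windows and in 5.20% of all windows. The full cyclic AMP response element TGACGTCA, which holds TGACG, was in 0 of 7 and 1.79%, and the CArG box in 0 of 7 and 1.63%. These are matches of letters in a window, with no reading of binding.

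Values are the deposited log2 signals, given for knockout animals 1, 2 and 3 and then WT animals 1, 2 and 3. Differences are knockout minus WT on the log2 scale, folds are powers of 2 of them, and "rose" and "fell" are used for a limma adjusted p under 0.05 over all 27022 tested probe sets. Probe sets with a mean under 3.58 log2 over the 6 arrays were not tested. As a check of the labels, Sgpl1 read 2.46, 2.99 and 2.87 in knockout livers, against 6.65, 6.90 and 6.71 in WT livers at 1415892_at, 15.7-fold lower in knockout livers (adjusted p = 1.27e-05, limma), and was 8.27-fold lower at 1415893_at. No source used here says whether these probes lie in the deleted part. The arrays read as liver: albumin (Alb) averaged 14.28 in knockout and 14.32 in WT livers, and 1 of 9 tested hepatocyte markers changed, Ttr, which fell by 0.29 (adjusted p = 0.0215, limma). That call was lost with quantile normalization (adjusted p = 0.0503), with centring on the hepatocyte markers (0.249) and without knockout 2, WT 1 or WT 2 (-0.29 to -0.28, limma). With centring on poly-A controls 8 of the 9 markers fell (median -0.82), as did 10077 of all 13370 tested genes.

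In all, 8 of the 10 genes rose in knockout livers, 0 fell, Ier2 was not called and Fosb lay below the filter, while 5 rose and 1, Ier2, fell when arrays were centred on their poly-A control probe sets. The background on the deposited scale was 18.2% of 13370 genes called in either direction, 10.3% of all tested genes upwards and 7.85% downwards. With poly-A centring 373 of the 13370 genes rose and 10077 fell, so Ier2 moved there as most genes did. By probe set, 12 of the 13 tested rose, against 10.1% of all tested probe sets. The 3 knockout values lay above the 3 WT values in 8 of the 9 tested genes, against 19.0% of all tested genes. All 9 tested differences were positive on the deposited scale, that of Ier2 at only 0.06. Its sign turned with quantile normalization (-0.01) and with poly-A centring (-0.69). At an unadjusted p under 0.05 (limma) the counts were also 8 higher and 0 lower, against 2325 higher and 2235 lower of all 13370 tested genes. The median difference of the 9 was 1.53, and that of all tested genes was -0.05. The WT mean of each of the 9 alone was above the filter level, so none passed through its knockout values only, although single WT values of Fos and Ier3 lay under it.

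**Figure D1:**
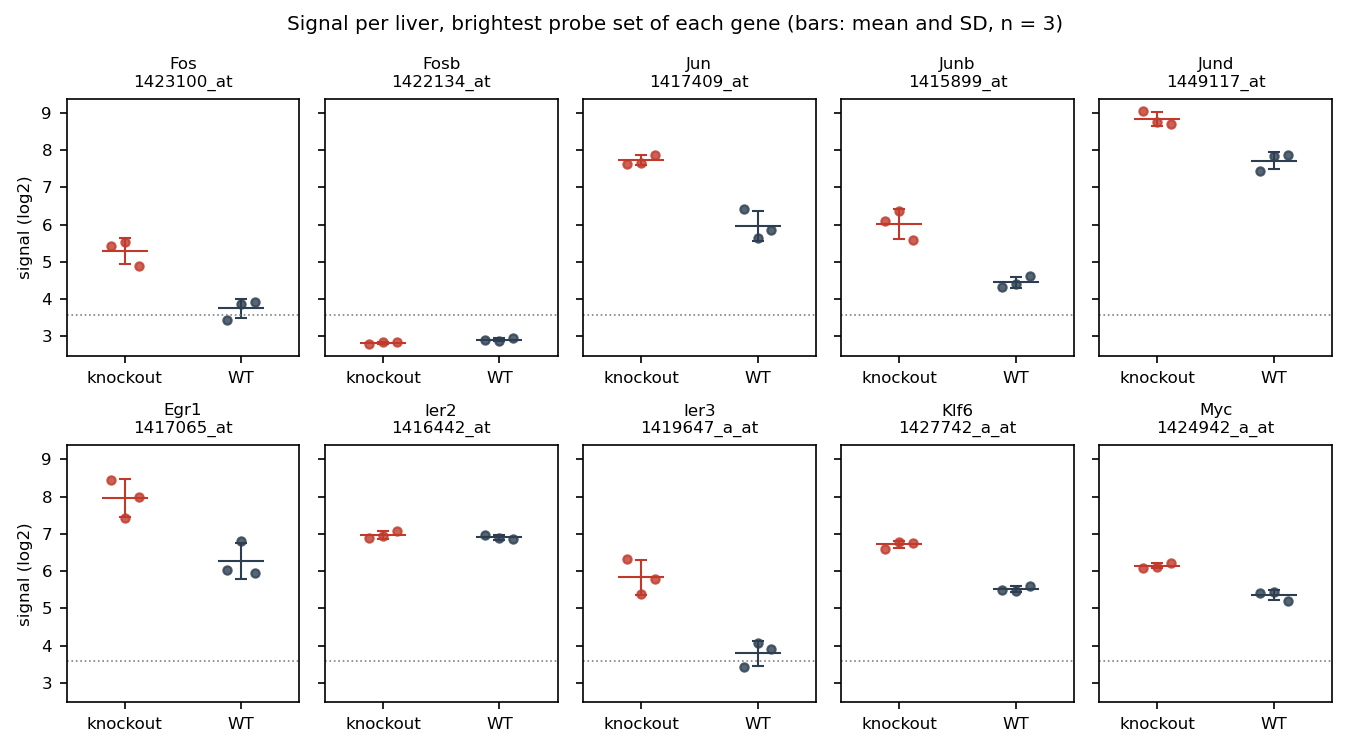
Log2 signal in each liver at the brightest probe set of each of the 10 genes; points are animals, bars show the mean and SD (n = 3), and the dotted line is the filter level of 3.58. The 3 knockout livers lie above the 3 WT livers for every gene shown except Fosb, which lies under the filter level in all 6 animals, and Ier2, whose values overlap.

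Markers of other cells differed between the same animals. Of 13 tested neutrophil markers, 12 rose and 0 fell, with a median difference of 4.34, and the WT means of 2 of them lay below the filter level. Their summed linear signal ran between 22598 and 25472 in knockout livers and between 663 and 910 in WT livers. Lymphocyte markers summed to between 376 and 451 in knockout livers and between 186 and 223 in WT livers, with 4 of 7 risen and 0 fallen. Macrophage and Kupffer cell markers gave 2 that rose and 4 that fell of 11, and their sums overlapped, between 3460 and 3768 in knockout and between 2729 and 3923 in WT livers. Stellate cell markers summed to between 2610 and 3062 in knockout and between 3300 and 3695 in WT livers, with 1 risen and 2 fallen of 8. The rise, that of Pdgfrb (0.55), was lost in 5 of the 6 fits without 1 animal and with quantile normalization (adjusted p = 0.0552, limma). Of the falls, that of Lrat (-1.24) was lost in 3 of the 6 fits and that of Reln (-0.64) in 0. Endothelial markers gave 1 that rose and 1 that fell of 7, the 3 cholangiocyte markers had no call, and 1 of 3 erythroid markers rose. Erythroid sums ran between 327 and 641 in knockout and between 225 and 260 in WT livers, while endothelial and cholangiocyte sums overlapped. Both endothelial calls were lost with hepatocyte centring and without knockout 1, knockout 2, WT 1 or WT 2. With centring on poly-A controls, 11 neutrophil markers rose and 1 fell, 3 lymphocyte markers rose and 3 fell, and 2 macrophage markers rose and 7 fell. On the same scale 7 stellate, 2 endothelial and all 3 cholangiocyte markers fell and 0 of these rose, and 1 erythroid marker rose and 1 fell. Of all 13370 tested genes, 10077 fell and 373 rose on that scale, while 7.85% fell and 10.3% rose on the deposited scale. The part of these cells in the values of the 10 genes was not tested. In whole tissue, a change in the number of cells of a type and a change in RNA per cell cannot be told apart.

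Fos, the classic inducible partner of Jun in AP-1, was read by 1 probe set, 1423100_at, from chromosome 12. It gave 5.43, 5.53 and 4.88 in knockout livers, against 3.45, 3.88 and 3.93 in WT livers. The groups did not overlap, and knockout animal 3 was nearest to the WT animals. The means were 5.28 ± 0.35 in knockout and 3.75 ± 0.26 in WT livers (SD, n = 3 each), and Fos rose 2.88-fold, a difference of 1.53 (SE 0.20, 95% interval 1.07 to 1.99, adjusted p = 0.00214, limma). The WT values lay close to the filter level, where signal may not be told from background, so the fold may be understated. Fosb, its close relative on chromosome 7, gave 2.79, 2.84 and 2.86 in knockout livers, against 2.90, 2.88 and 2.96 in WT livers. All 6 values were below the filter and were not tested, and the 3 knockout values were the lower ones, with a mean difference of -0.09. With no filter its adjusted p was 0.553 (limma).

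The 3 Jun proteins dimerise with Fos proteins or with each other. Jun, on chromosome 4, gave 7.63, 7.66 and 7.88 in knockout livers, against 6.42, 5.64 and 5.85 in WT livers at 1417409_at. The knockout animals were close together and all above the WT animals, of which animal 1 was highest. The means were 7.72 ± 0.14 in knockout and 5.97 ± 0.40 in WT livers (SD, n = 3 each), and Jun rose 3.36-fold, a difference of 1.75 (SE 0.20, 95% interval 1.29 to 2.21, adjusted p = 0.00123, limma). Its second probe set, 1448694_at, gave 6.27, 6.83 and 7.14 in knockout livers, against 6.10, 5.80 and 5.83 in WT livers. There the groups did not overlap either, but knockout animal 1 was close to WT animal 1, and the rise was 0.84 (SE 0.22, 95% interval 0.34 to 1.34, adjusted p = 0.0331, limma). That call was lost in 5 of the 6 fits that left out 1 animal: 0.80 without knockout 2 (adjusted p = 0.108), 0.64 without knockout 3 (0.0721), 0.93 without WT 1 (0.0522), 0.78 without WT 2 (0.0895) and 0.80 without WT 3 (0.0692). Both probe sets had the same sign in every one of these fits. With centring on poly-A controls the second was at 0.09 and not called (adjusted p = 0.747, limma). The difference at the second probe set minus that at the first was -0.91 (exact permutation p = 0.1, two-sided, the smallest that 3 against 3 allow).

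Junb and Jund are neighbours in role, Junb inducible and often a weaker activator than Jun, Jund known for its steady expression in resting cells. Junb gave 6.10, 6.35 and 5.58 in knockout livers, against 4.33, 4.40 and 4.61 in WT livers at 1415899_at. No values overlapped, and the knockout animals spread more than the WT animals, with means of 6.01 ± 0.40 in knockout and 4.45 ± 0.15 in WT livers (SD, n = 3 each). Junb rose 2.96-fold, a difference of 1.56 (SE 0.20, 95% interval 1.11 to 2.02, adjusted p = 0.00184, limma). Jund gave 9.06, 8.74 and 8.71 in knockout livers, against 7.45, 7.83 and 7.86 in WT livers at 1449117_at. All 3 knockout animals were higher, with means of 8.84 ± 0.19 in knockout and 7.71 ± 0.23 in WT livers (SD, n = 3 each), and Jund rose 2.18-fold, a difference of 1.12 (SE 0.16, 95% interval 0.76 to 1.49, adjusted p = 0.00299, limma). A second Jund probe set, 1440265_at, lay below the filter at 3.16, 3.44 and 3.51 in knockout livers, against 3.91, 3.51 and 3.67 in WT livers. Its groups overlapped, its difference was -0.32, and with no filter it was not called (adjusted p = 0.184, limma). Junb and Jund both lie on chromosome 8.

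Egr1, a zinc-finger factor driven by serum response factor, had the widest spread between animals of a group among the 9 tested genes in both genotypes. It gave 8.44, 7.42 and 8.0 in knockout livers, against 6.02, 6.81 and 5.95 in WT livers at 1417065_at. The lowest knockout value, 7.42, was still above the highest WT value, 6.81. The means were 7.95 ± 0.51 in knockout and 6.26 ± 0.48 in WT livers (SD, n = 3 each), and Egr1 rose 3.23-fold, a difference of 1.69 (SE 0.30, 95% interval 1.0 to 2.38, adjusted p = 0.00761, limma). With 1 animal left out the difference ran between 1.45 and 1.97 and stayed called in 6 of 6 fits, with a highest adjusted p of 0.0305 (limma).

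Ier2 and Ier3 share a name, immediate early response, but are unrelated proteins. Ier3, a small membrane-bound stress protein that modulates cell survival and NF-kB signalling, lies on chromosome 17 and gave 6.33, 5.39 and 5.79 in knockout livers, against 3.42, 4.06 and 3.90 in WT livers. The groups were apart, though the WT values sat near the filter level, so the fold may be understated. With means of 5.84 ± 0.47 in knockout and 3.79 ± 0.33 in WT livers (SD, n = 3 each), Ier3 rose 4.13-fold, a difference of 2.05 (SE 0.25, 95% interval 1.46 to 2.63, adjusted p = 0.00167, limma). Ier2, a nuclear protein on chromosome 8, gave 6.89, 6.93 and 7.08 in knockout livers, against 6.98, 6.88 and 6.86 in WT livers. Its groups overlapped, with means of 6.97 ± 0.10 in knockout and 6.91 ± 0.06 in WT livers (SD, n = 3 each). The difference was 0.06 (SE 0.12, 95% interval -0.21 to 0.33, adjusted p = 0.738, limma), so its interval did not reach the lower bound of any of the 8 genes that rose. It was the one tested gene of the 10 without a call.

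Klf6, a Kruppel-like zinc-finger factor on chromosome 13 known as a responder to liver injury, had 5 probe sets, the most of the 10 genes. At the brightest, 1427742_a_at, it gave 6.60, 6.79 and 6.76 in knockout livers, against 5.49, 5.45 and 5.60 in WT livers. Neither group spread beyond 0.10 SD, the means were 6.71 ± 0.10 in knockout and 5.52 ± 0.08 in WT livers (n = 3 each), and the rise was 2.29-fold, a difference of 1.20 (SE 0.12, 95% interval 0.93 to 1.47, adjusted p = 0.000611, limma). The other 3 tested probe sets rose too, with larger differences. At 1433508_at the values were 6.50, 6.30 and 6.15 in knockout livers, against 4.12, 3.73 and 3.71 in WT livers, a 5.52-fold rise (difference 2.46, SE 0.16, adjusted p = 8.45e-05, limma). At 1447448_s_at they were 6.66, 6.34 and 5.90 in knockout livers, against 3.69, 3.60 and 3.76 in WT livers, a 6.13-fold rise (difference 2.62, SE 0.19, adjusted p = 0.000152, limma). At 1418280_at they were 5.48, 5.32 and 5.44 in knockout livers, against 3.65, 3.63 and 3.65 in WT livers, a 3.41-fold rise (difference 1.77, SE 0.11, adjusted p = 7.14e-05, limma). No group overlapped at any of the 4. The WT means at these last 3 probe sets, 3.85, 3.68 and 3.64, lay near the filter level, so these folds may be understated too. The fifth, 1459718_x_at, was below the filter at 3.39, 2.93 and 2.79 in knockout livers, against 2.36, 2.17 and 2.38 in WT livers. Relative to the brightest probe set, the differences were larger by 1.27 at 1433508_at, by 1.42 at 1447448_s_at and by 0.57 at 1418280_at (exact permutation p = 0.1 each, two-sided), gaps that rest on the same dim WT values. Averaging the tested probe sets of each gene gave 2.01 for Klf6 in place of 1.20, and 1.29 for Jun in place of 1.75.

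Myc, the growth-promoting factor on chromosome 15 that dimerises with Max, gave 6.09, 6.12 and 6.22 in knockout livers, against 5.42, 5.44 and 5.20 in WT livers at 1424942_a_at. The groups did not overlap and were tight, with means of 6.14 ± 0.06 in knockout and 5.35 ± 0.13 in WT livers (SD, n = 3 each). Myc rose 1.73-fold, a difference of 0.79 (SE 0.12, 95% interval 0.52 to 1.07, adjusted p = 0.00404, limma), which was the smallest rise of the 8 at the brightest probe sets.

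**Figure D2:**
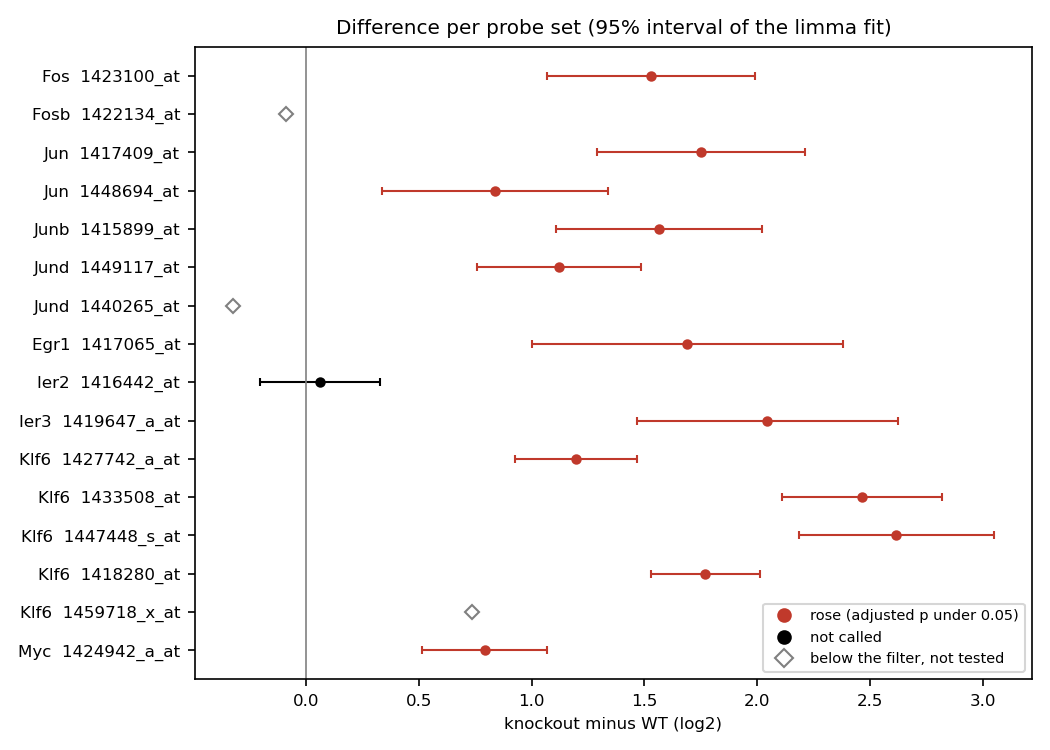
Difference in log2 signal, knockout minus WT, at each of the 16 probe sets, with the 95% interval of the limma fit; open diamonds lie below the filter and have no interval. The 12 red points rose, from 0.79 at Myc to 2.62 at Klf6 1447448_s_at, and the interval of Ier2 spans 0.

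By size of difference at the brightest probe set the order was Ier3, Jun, Egr1, Junb, Fos, Klf6, Jund, Myc and Ier2. With the tested probe sets of each gene averaged, Klf6 was at 2.01 and Jun at 1.29, so their places depend on that choice. At the brightest probe sets each pair of neighbours from Ier3 down to Myc had overlapping 95% intervals, and differences between genes were not tested. The order of neighbours is therefore not settled. The intervals of Ier3, Jun and Junb lay above that of Myc, and the interval of Ier2 lay under those of all 8 genes that rose. Among all tested genes, 0.965% had a larger difference than Ier3, 1.41% than Jun, 1.5% than Egr1, 1.79% than Junb and 1.91% than Fos. The differences of Ier3 and Fos, and so their places, rest on WT values near the filter level. For Klf6 the share was 3.11%, for Jund 3.49%, for Myc 6.36% and for Ier2 37.9%. No single animal carried the rise: among the 8 genes that rose, knockout animal 1 was highest of its group in 3 and lowest in 3, animal 2 in 3 and 2, and animal 3 in 2 and 3. WT animal 1 was highest of its group in 1 gene and lowest in 4, animal 2 in 3 and 2, and animal 3 in 4 and 2. With each animal left out in turn, all 8 stayed called at their brightest probe sets in 6 of 6 fits.

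Array controls also differed between the genotypes. The 24 poly-A control probe sets were all higher in knockout livers, with array means of 9.07, 8.75 and 8.52 in knockout and 8.01, 7.99 and 8.08 in WT livers, a difference of 0.75 (exact permutation p = 0.1, two-sided). Signal of the 3' end over the 5' end was also higher in knockout livers. For Actb the 3' minus 5' value was 1.45, 1.42 and 1.12 in knockout and 0.97, 0.81 and 0.87 in WT livers, and for Gapdh it was 0.54, 0.57 and 0.25 in knockout and 0.07, -0.06 and -0.05 in WT livers. The part of labelling and RNA quality in the rises was not tested. Array medians were 4.08 in knockout and 4.11 in WT livers, a difference of -0.03 (exact permutation p = 0.3, two-sided). Centring on array medians or hepatocyte markers, or quantile normalization, kept all 8 rises called. Centring on the poly-A controls took 0.75 from every difference and moved the median of all genes to -0.80. On that scale Ier3 rose by 1.30, Jun by 1.0 at its brightest probe set, Egr1 by 0.94, Junb by 0.81 and Fos by 0.78. The other Jun probe set, 1448694_at, was at 0.09 and not called (adjusted p = 0.747, limma). At their brightest probe sets Klf6 at 0.45 (adjusted p = 0.0957), Jund at 0.37 (0.16) and Myc at 0.04 (0.874) lost their calls there. Ier2 at -0.69 was called lower in knockout livers (adjusted p = 0.0108, limma). The other tested Klf6 probe sets, with WT means near the filter level, kept their calls. They rose by 1.72 at 1433508_at (adjusted p = 4.01e-10), 1.87 at 1447448_s_at (6.4e-12) and 1.02 at 1418280_at (0.000177, limma). Of all called genes 56.8% rose on the deposited scale, 70.6% with hepatocyte centring and 3.57% with poly-A centring.

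**Figure D3:**
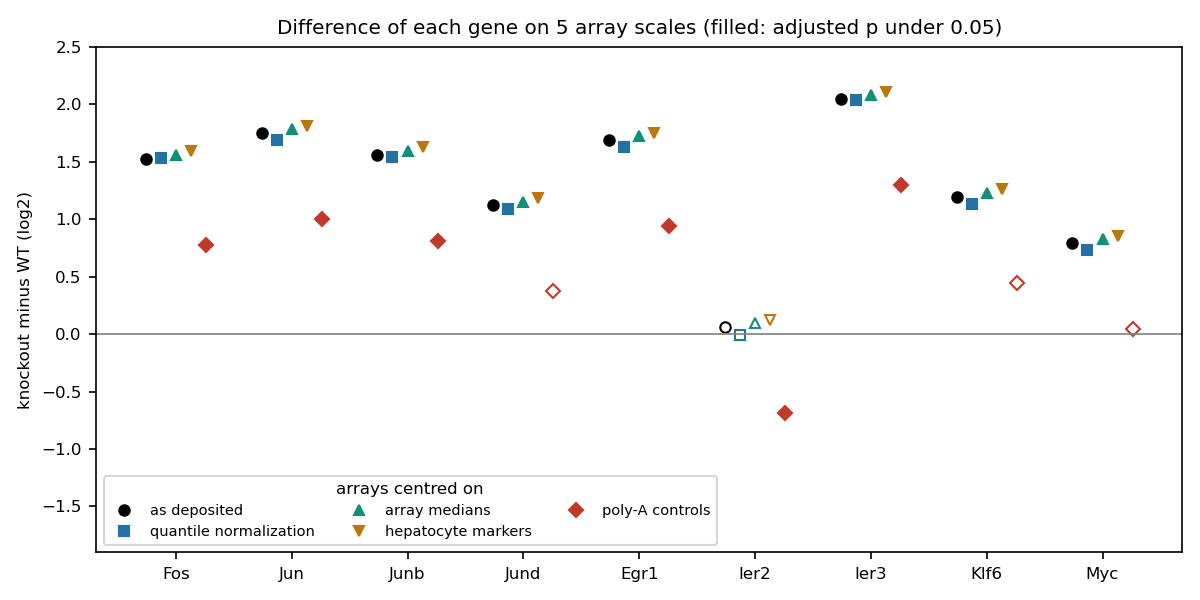
Difference in log2 signal, knockout minus WT, of the 9 tested genes at their brightest probe sets on 5 array scales. Filled symbols had an adjusted p under 0.05. The deposited, quantile, median-centred and hepatocyte-centred values of each gene lie close together, and the poly-A-centred values lie 0.75 lower, where Jund, Klf6 and Myc lose their calls and Ier2 is called lower.

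Of 13 other tested AP-1 and related bZIP genes, 5 rose and 0 fell, with a median difference of 0.26 (-0.49 with poly-A centring, where 0 rose and 5 fell). The counts of this and the following lists on the deposited scale stand beside 10.3% of all tested genes that rose and 7.85% that fell. Their poly-A counts stand beside 10077 of all 13370 tested genes that fell there and 373 that rose. Atf3, a stress-induced factor that pairs with Jun proteins, gave 6.45, 6.16 and 6.15 in knockout livers, against 5.09, 5.52 and 5.07 in WT livers. It rose 2.03-fold without overlap (difference 1.02, SE 0.16, adjusted p = 0.00475, limma), but was not called with poly-A centring (0.28, adjusted p = 0.306). Jdp2, a dimerisation partner that represses AP-1, rose by 1.09 (adjusted p = 0.0120, limma), but not without knockout 2 (0.96, adjusted p = 0.0523) or with poly-A centring (0.34, adjusted p = 0.20), and its second probe set was not called at 0.03. The small and large Maf genes Maff (0.64, and -0.11 with poly-A centring), Maf (0.48 and -0.27) and Mafk (0.46 and -0.29) rose with adjusted p of 0.0140, 0.0388 and 0.0305 (limma). These 3 calls were less firm: Maff lost its call without knockout 1 or knockout 2 (lowest difference 0.56), and Maf (lowest 0.41) and Mafk (lowest 0.40) in 5 of the 6 fits that left out 1 animal, all but that without WT 3. The count of risen genes in the list ran between 1 and 5 over those fits, and hepatocyte centring left 3. Atf7 at -0.38, Batf at 0.26 and Batf2 at -0.22 were not called. The Fos relatives Fosl1 and Fosl2, chosen after their values were seen, were both at -0.10 and not called.

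Of 27 other tested immediate early genes, 7 rose and 1 fell, with a median difference of 0.38 (-0.37 with poly-A centring, where 4 rose and 9 fell). Btg2, an antiproliferative gene, gave 9.91, 9.67 and 9.73 in knockout livers, against 7.21, 6.37 and 7.23 in WT livers. That 7.13-fold rise (difference 2.83, SE 0.23, adjusted p = 0.000251, limma) was beyond that of any of the 10 genes at their brightest probe sets. Nfkbiz, an IkB-family regulator of inflammatory genes, rose by 2.74 (adjusted p = 0.00116), Ccn2, a matricellular protein, by 2.40 (0.00137), and Socs3, the feedback inhibitor of cytokine signalling, by 2.11 (0.000697, limma). These 4 stayed called with each animal left out and on every scale tried. Ier5 rose by 1.25 (adjusted p = 0.0151) with its second probe set at -0.07 and not called and a difference of 0.50 with poly-A centring (0.0645), Rhob by 0.71 (0.0133, and -0.04 with poly-A centring), and Klf2 by 0.54 (0.0251, and -0.21 with poly-A centring, limma). Klf2 lost its call in 4 of the 6 fits without 1 animal, those without knockout 1, knockout 2, WT 1 or WT 2 (lowest 0.46). Tob1 fell by 0.57 (adjusted p = 0.0366, limma), and was not called without knockout 1, knockout 2, WT 1 or WT 3 (differences -0.57 to -0.45). Genes of the same class that were not called, chosen after their values were seen, include Klf4 at 1.09 (adjusted p = 0.0657), Zfp36 at 0.54 (0.0995), Dusp1 at 0.44 (0.239) and Nr4a1 at 0.36 (0.0693, limma).

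Upstream of these genes, in the MAP kinase cascade, 3 of 16 tested genes rose and 1 fell (median difference 0.13, and -0.62 with poly-A centring, where 1 rose and 10 fell). Of all tested genes 10.3% rose and 7.85% fell on the deposited scale. Map3k1, a kinase that feeds the JNK and ERK branches, gave 5.64, 6.06 and 5.27 in knockout livers, against 4.15, 3.87 and 4.04 in WT livers, and rose by 1.63 (adjusted p = 0.00153, limma). Mapkapk2, a kinase under p38, rose by 0.84 (adjusted p = 0.00664), but with poly-A centring it was at 0.09 and not called (0.741, limma). Map3k8 rose by 0.53 (0.0198, and -0.22 with poly-A centring), though not without knockout 2 or WT 1 (both 0.46), and Map2k3, a kinase that activates p38, fell by 0.63 (0.00781, limma). Of 11 phosphatases and feedback inhibitors, 2 rose and 0 fell (median 0.10, and -0.64 with poly-A centring, where 0 rose and 7 fell). They were Dusp16 at 0.75 (adjusted p = 0.0147, and 0.998 with poly-A centring) and Dusp2 at 0.54 (0.0154, and -0.21 with poly-A centring), and neither was called without knockout 1 (0.74 and 0.50). Spred2 at -0.44 and Spry2 at 0.31 were not called.

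Of 12 genes for serum response factor, CREB and their cofactors, 7 rose and 0 fell (median 0.44, and -0.31 with poly-A centring, where 1 rose and 3 fell). Mrtfa, the actin-sensing cofactor of serum response factor, gave 6.59, 6.51 and 6.56 in knockout livers, against 5.11, 5.16 and 5.50 in WT livers, and rose by 1.29 (SE 0.14, adjusted p = 0.000886, limma). Its relative Mrtfb rose by 0.81 (adjusted p = 0.0159, and 0.06 with poly-A centring, not called), Creb1 by 0.64 (0.0140, and -0.11 with poly-A centring) and the acetyltransferase gene Ep300 by 0.61 (0.0186, and -0.13 with poly-A centring, limma). Those 3 lost their calls without knockout 1 (Mrtfb also without knockout 2, Ep300 also without knockout 3 or WT 2), at differences of 0.56 or more, and the 3 other probe sets of Creb1 were not called. Over the fits without 1 animal 2 to 5 of the 12 were called, and hepatocyte centring left 4. Srf itself, chosen after its values were seen, was at -0.15 and not called (adjusted p = 0.372, limma).

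Of 8 tested AP-1 target genes 5 rose and 0 fell, with a median difference of 0.99 (0.24 with poly-A centring, where 3 rose and 3 fell), and 4 more lay below the filter. Cd44, a hyaluronan receptor, gave 7.53, 7.90 and 7.64 in knockout livers, against 5.36, 6.31 and 5.68 in WT livers, and rose by 1.90 (adjusted p = 0.00165, limma). Mmp9, a gelatinase also stored in neutrophils, rose by 1.35 (0.00215), Plaur, the urokinase receptor of white cells among others, by 1.11 (0.00386), and Timp1, an inhibitor of metalloproteinases, by 0.87 (0.00267, limma). With poly-A centring Plaur at 0.36 (adjusted p = 0.177) and Timp1 at 0.13 (0.637, limma) lost their calls, while Cd44 and Mmp9 kept theirs. The count stayed at 5 with each animal left out. With no filter 6 of 12 rose and the median was 0.36. The neutrophil markers given above were higher in the same livers, and their part in these 4 was not tested.

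Around Myc, 4 of 14 partners and antagonists rose and 1 fell (median 0.07, and -0.68 with poly-A centring, where 2 rose and 8 fell). The 4 became 2 without knockout 1, knockout 2, WT 1 or WT 2. Mxd1, which competes with Myc for Max, rose by 1.28 (adjusted p = 0.00618, limma), and Max itself, chosen after its values were seen, was at 0.26 and not called. Mlxip and Mlxipl, related glucose-sensing factors, moved in opposite directions: Mlxip rose by 1.56 (adjusted p = 0.00571) and Mlxipl fell by 1.28 (0.00951, limma). Fbxw7, part of the ligase that degrades Myc, rose by 0.49 (0.0376, and -0.26 with poly-A centring), and lost that call in 5 of the 6 fits without 1 animal, all but that without WT 3 (lowest 0.42). Of 15 Myc target genes 1 rose and 1 fell (median 0.20, and -0.55 with poly-A centring, where 0 rose and 8 fell), near the 10.3% and 7.85% of all tested genes on the deposited scale. Without WT 3, 3 of these rose. Ldha rose by 0.85 (adjusted p = 0.00124, and 0.10 with poly-A centring, not called) and Rcl1 fell by 0.75 (0.0129, limma), while Cdk4 at 0.38 and Shmt2 at -0.44 were not called.

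Beside Klf6, 2 of 9 tested Kruppel-like factor genes rose and 0 fell (median 0.11, and -0.64 with poly-A centring, where 0 rose and 5 fell). They were Klf7 at 0.90 (adjusted p = 0.0323, and 0.15 with poly-A centring, not called) and Klf13 at 0.56 (0.0427, and -0.19 with poly-A centring, limma), while Klf5 at 0.30 and Klf12 at -0.44 were not called. Klf7 lost its call without knockout 1, knockout 2, WT 1 or WT 3 (lowest 0.75) and Klf13 in all fits without 1 animal but that without WT 3 (lowest 0.44). Without knockout 1 or knockout 2, 0 of the 9 rose. Among the lists in which 0 genes fell, an unadjusted p under 0.05 (limma) marked 1 lower gene among the AP-1 and bZIP genes and 1 among the Kruppel-like factors. It marked 0 among the phosphatases and feedback inhibitors, the serum response factor list and the AP-1 targets. Over all 13370 tested genes the same threshold marked 2235 lower.

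**Figure D4:**
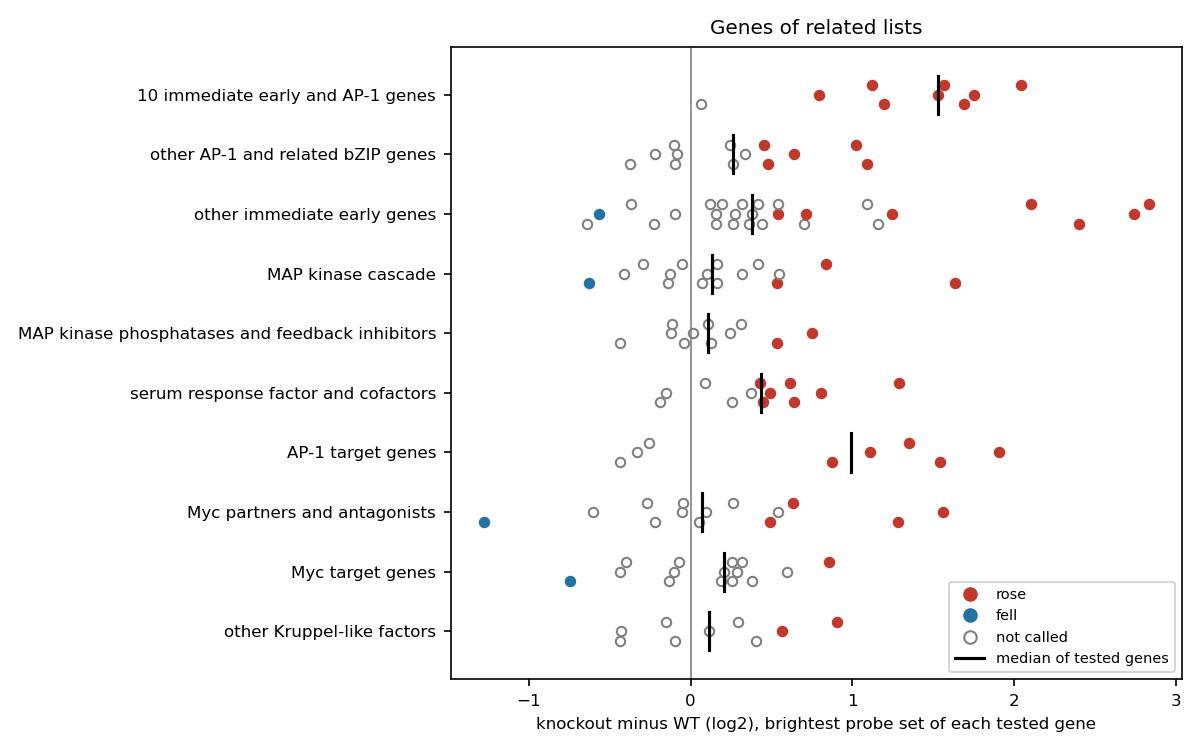
Difference in log2 signal, knockout minus WT, of each tested gene of the 10 and of related lists, read at its brightest probe set; red rose, blue fell, open circles were not called, and the black bar is the median of a list. The median of the 10 genes (9 tested) is 1.53 and those of the related lists lie between 0.07 and 0.99.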

How the data were processed

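Per the labels' protocols, total RNA was taken from 3 knockout and 3 WT livers with TRIzol and labelled the standard Affymetrix way. Each replicate is a separate animal, and its number is only a name. The values deposited by the authors are on the log2 scale, 1 per probe set and array. The submitters' processing notes list MAS5, with no version and no role. The handling of background, scaling and summarization was not given in the sources used here. No detection calls were used.

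The platform annotation gave 1 symbol to 34958 of 45101 probe sets. Left out were 64 array controls and the non-control probe sets below the 40th percentile of the mean over 6 arrays (3.58 log2), so that 27022 were tested. The comparison used limma 3.58.1 in R 4.3.3 (lmFit, eBayes with an intensity trend, two-sided, Benjamini-Hochberg over all tested probe sets, adjusted p under 0.05). A gene was read by its brightest tested probe set with 1 symbol. Exact permutation tests were used for single values per array. The fit was tested on simulated data. The 10 genes, the related lists and the markers were chosen with earlier results of these data known. All 16 probe sets of the 10 genes are given. Of each list up to 4 tested genes with the smallest adjusted p are named, up to 8 for the AP-1 and immediate early lists, and others are said to be chosen after their values were seen. List genes without a probe set of 1 symbol were not analysed here.

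Alternatives tried were dropping the filter, raising it to the 60th percentile, quantile normalization, centring on array medians, poly-A controls or hepatocyte markers, a fit without the trend, array quality weights, 1 value per gene, averaging the probe sets of each gene, and leaving out each animal. The number of arrays, 6, limits the precision.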

Additional observations from a re-analysis of the deposited data

Results flagged for a closer look

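Klf6 probe set 1459718_x_at lay below the filter and entered no count, yet its 3 knockout values were above its 3 WT values by 0.73 on the log2 scale. Also, 5 array-control measures outside the comparison of genes were higher in knockout livers, without overlap and with an exact permutation p of 0.1 each, the smallest that 3 against 3 allow. The 3' minus 5' signal was higher by 0.45 log2 for Actb, by 0.47 for Gapdh and by 1.01 for Pcx. The mean of 24 poly-A control probe sets was higher by 0.75, and that of 18 hybridisation control probe sets by 0.18.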

How the results depend on the processing

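Against 2429 genes and 4835 probe sets called on the deposited values, leaving out 1 animal gave 1292 to 2323 genes and 2517 to 4639 probe sets. The lowest counts came without knockout 2, and those without knockout 1 (1357 genes, 2605 probe sets) and WT 1 (1598 genes) were also low; fewer arrays entered these fits. All 8 rises stayed called in these fits at their brightest probe sets. Centring on poly-A controls called 10450 genes and 21028 probe sets, 373 genes up and 10077 down. At the brightest probe sets it left 5 of the 10 genes risen and 1 fallen, Ier2, which turned to -0.69. The cause of that scale difference was not tested. The filter at the 60th percentile left Fos out, and 7 of 8 tested genes rose there. Ier2 was -0.01 with quantile normalization. With the other settings 8 of the 10 genes rose. No paired analysis was possible because the labels give the animals no shared replicate numbers. Probe sets near or below the filter level (Fos, Ier3 and Klf6 other than its brightest probe set in WT livers, Fosb in all) may not be told from background.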
